A study of Homo sapiens with 7 samples.

Results

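The comparison described here set DLD-1 cells after 4 d of DNMT1 degradation against the same cells without auxin, 2 of the 7 Hi-C libraries of the study. DLD-1 is an established human colorectal adenocarcinoma line. In the DNMT1-AID genotype, the maintenance DNA methyltransferase DNMT1 carries an auxin-inducible degron and is degraded when auxin (indole-3-acetic acid, 500 nM) is added. The treated library is titled HiC_DLD1-IAA4d and the untreated library HiC_DLD1-NT, and both were chosen by title and treatment label, not by a measured value. The other 5 libraries are given beside some results: DNMT1-AID cells with 10 d of auxin or with 4 d of auxin and then 4 d of washout, and DNMT3B knockout cells with the degron, untreated or with 4 or 10 d of auxin. The untreated knockout library, HiC_3BKO-NT, is called knockout by its title alone. Its genotype label names DNMT1-AID without the knockout, so every value set against it below depends on that title. The degron is present in all 7 libraries and no cells without it received auxin here, so DNMT1 loss and auxin as such cannot be told apart. The labels do not say whether the cells were 1 clone. Contact tables hold no gene expression, so neither the loss of DNMT1 nor the identity of the line could be checked in them.

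DNMT1 copies methylation onto the daughter strand after replication, and cells that divide without it lose methylation passively. Hi-C ligates DNA ends that are close in space and sequences the junctions, so each count is a contact between a pair of genomic positions. Contact falls with separation along the chromosome: below a few megabases it reflects loops and domains, at larger separations compartments and the folding of whole arms, and contacts between chromosomes (trans) reflect how territories mix. Late-replicating regions commonly lie in the inactive compartment, and satellite repeats beside the centromeres are normally heavily methylated.

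The treated library held 222645438 contacts and the untreated one 114710963, from a separation of 100 kb on, on 23 chromosomes (1 to 22 and X). Each group was 1 library, so there is no test against replicates. Intervals given below are 95% counting intervals and hold neither culture nor preparation differences. Chromosome coverage relative to untreated cells lay between 0.989-fold and 1.02-fold, so no chromosome changed its share of contacts by more than that.

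Contacts moved toward short separations after 4 d. Among all contacts, those within arms at 0.25 to 1 Mb made up 26.2% after auxin and 24.3% without it, the class with the largest gain of the 9 classes compared (1.92 percentage points). Contacts at 0.1 to 0.25 Mb rose by 0.72 points, from 19.9% to 20.6%. Contacts between chromosomes fell from 21.4% to 20.5%, by 0.84 points, and those within arms at 20 to 50 Mb from 5.65% to 4.81%, also by 0.84 points. Contacts between the arms of a chromosome fell from 3.71% to 3.33%. The median separation of contacts within arms was 0.55 Mb after auxin and 0.60 Mb without it, and the upper quartile was 3.0 Mb against 3.95 Mb. The median thus moved by a single 50 kb bin and the upper quartile by more.

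The difference had a shape along separation that a single exponent does not hold. Contact is given as the authors' balanced value per 1000000 valid bin pairs throughout, a valid pair being a pair of bins that passed balancing. At 100 kb, contact was 47673 after auxin and 46255 without it, a log2 ratio of 0.044. The ratio rose to its highest value, 0.11, at 0.5 to 0.6 Mb, where contact was 8288 against 7656. It then fell and crossed 0 at 1.91 Mb. With raw counts scaled to the same total, the crossing lay at 1.66 Mb. Beyond the crossing the ratio reached -0.047 at 3.15 to 3.95 Mb and came back to -0.020 at 6.3 to 7.9 Mb, where contact was 288.0 against 292.1. From 10 Mb on it fell again, to -0.19 at 19.95 to 25.05 Mb and -0.30 at 50.1 to 63.05 Mb, where contact was 29.2 against 36.0. Between 79.45 and 99.95 Mb it was smaller in size, -0.17, and between 100.0 and 125.85 Mb it was -0.12. In the last bin, 125.9 to 158.45 Mb, it was -0.30 again, with a half-width of 0.049 from 8767 and 5479 counts. The counting half-width was 0.0027 or less up to 31.55 Mb and 0.019 in the bin from 100.0 Mb. In balanced contact, the depletion was therefore in a shallow step at a few megabases and a deeper one beyond 10 Mb, separated by a range near 7 Mb with almost equal contact. With raw counts scaled to the same total, the ratio was -0.044 at 6.3 to 7.9 Mb and -0.070 at 3.15 to 3.95 Mb, so the gap was less near to equal.

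**Figure D1:**
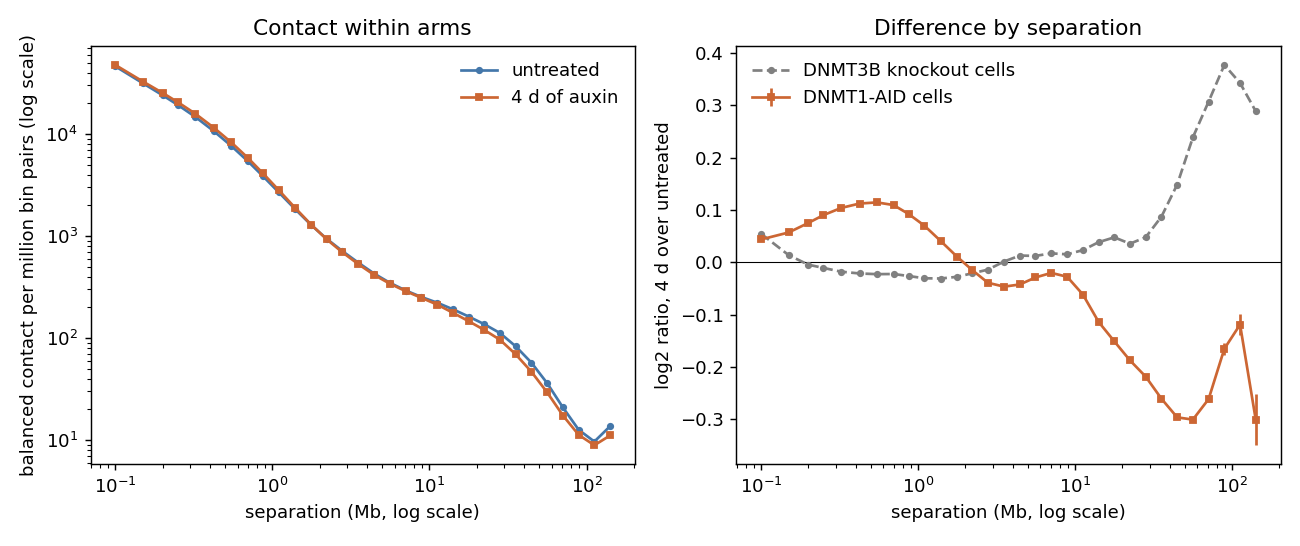
Left, balanced contact within arms per 1000000 bin pairs against separation in Mb, both on log axes, for the untreated library and the library after 4 d of auxin. Right, the log2 ratio of 4 d over untreated against separation on a log axis, in DNMT1-AID cells (bars are 95% counting intervals) and in DNMT3B knockout cells; the DNMT1-AID ratio peaks at 0.11 near 0.5 Mb and falls to -0.30 near 56.2 Mb.

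The local slope of contact on separation (log10 on log10) showed the same pattern. In the bin of 1.25 to 1.55 Mb it was -1.64 after auxin and -1.55 without it, a difference of -0.086. Around 5.0 to 6.25 Mb the difference was 0.033, so the treated curve was slightly flatter there. In the bin of 12.6 to 15.8 Mb it was -0.81 against -0.68, a difference of -0.13. Near the lowest separations, at 0.2 Mb, the treated curve was flatter by 0.046. Over 0.5 to 5 Mb as a whole, the fitted exponent was -1.47 against -1.41, a difference of -0.062. A window of 1 to 10 Mb gave a difference of -0.029, since it spans the flat range.

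The 41 chromosome arms with valid bins shared this pattern, and they differed in its size. The 5 short arms of the acrocentric chromosomes had no valid bin pair. A difference past 0.1 on the log2 scale (1.07-fold) is called here. At 0.1 to 0.25 Mb, contact was higher in 41 of 41 arms and called in 1 (2.44%), 19p with 0.11. At 0.5 to 1 Mb, it was higher in 41 of 41 arms and called in 29 (70.7%), with log2 ratios from 0.060 on Xq to 0.19 on 17p. At 0.25 to 0.5 Mb it was higher in 41 arms and called in 19 (46.3%), most on 19q (0.18). At 1 to 2 Mb it was higher in 38 and lower in 3 arms, and called higher in 2 (4.88%), while 19p was the lowest and called lower at -0.10. At 2 to 5 Mb it was lower in 40 of 41 arms, with the call reached in 2 (4.88%). At 5 to 10 Mb it was lower in 38 and called in 4 (9.76%), the lowest being 19q with -0.21. At 10 to 20 Mb it was lower in all 40 arms long enough, and called in 25 (62.5%). The 27 arms that reach 50 Mb were all lower at 20 to 50 Mb, and all called (100%), from -0.41 on 6p to -0.18 on 4q. The 8 arms that reach 100 Mb were all lower at 50 to 100 Mb and called (100%), from -0.29 on 3q to -0.20 on 1p. The arms spread most at 10 to 20 Mb, where the SD over arms was 0.11, against 0.017 at 0.1 to 0.25 Mb and 0.030 at 2 to 5 Mb.

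**Figure D2:**
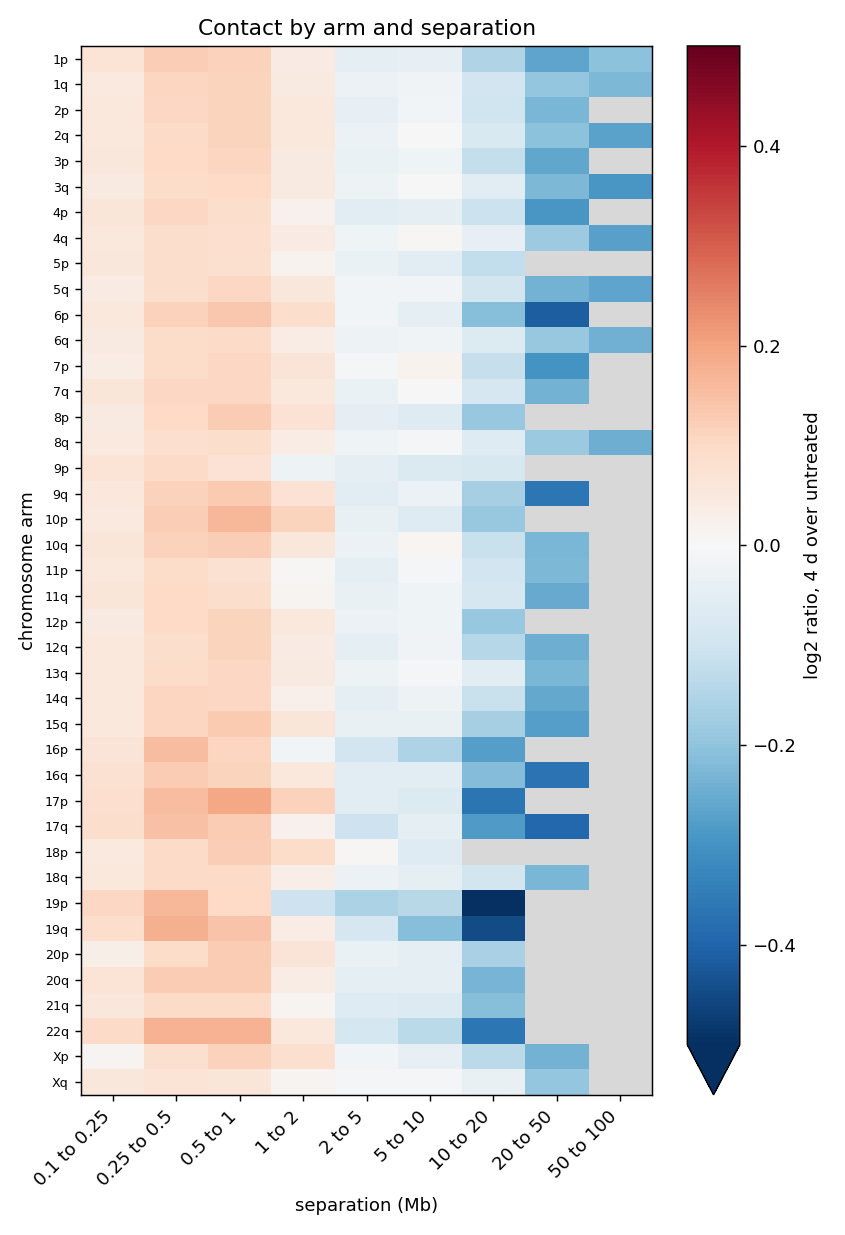
Log2 ratio of balanced contact, 4 d over untreated, for each of 41 chromosome arms (rows) in 9 ranges of separation in Mb (columns); grey cells are ranges longer than the arm. All 41 arms are higher at 0.25 to 1 Mb, and 19p, with -0.53 at 10 to 20 Mb, lies past the lower end of the colour scale.

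Arms of unequal length reach different separations, so a share of contacts at 10 Mb or more mixes length with folding. Contact at 10 to 20 Mb was therefore divided by that at 0.5 to 2 Mb on the 39 arms of at least 25 Mb. Over these arms together, this far-to-near ratio was 5.40% after auxin and 6.15% without it, a log2 ratio of -0.19. It was lower in 39 of 39 arms and called in 38 (97.4%), with a median of -0.20 and an SD over arms of 0.11. With 5 to 10 Mb as the far range, the log2 ratio over the arms together was -0.11. The arms that fell most were both arms of chromosome 19, the most gene-dense chromosome, followed by 22q and 17q. On 19p the ratio was 4.54% against 6.65% (log2 ratio -0.55), and on 19q 3.91% against 5.71% (-0.55). On 22q it was 4.76% against 6.69% (-0.49), and on 17q 4.02% against 5.19% (-0.37). The arms nearest to no change were Xq, with 7.55% against 7.97% (-0.079), 4q with 5.83% against 6.28% (-0.11), 9p with 7.83% against 8.45% (-0.11) and 8q with 5.96% against 6.53% (-0.13). Only Xq stayed inside the call.

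Gene density ordered the arms in part. RefSeq (GRCh38) lists 25.1 protein-coding genes per Mb on 19p and 24.5 on 19q, 11.9 on 22q, 3.74 on 4q and 5.43 on Xq. Over the 39 arms of this 1 pair of libraries, the log2 far-to-near change had a Spearman rho of -0.66 with gene density and 0.63 with arm length, while density and length had a rho of -0.35 over the 41 arms. On the 27 arms of 50 Mb or more, the rho with density was -0.58 and that with length 0.41. The change was also ordered by the untreated share of contacts at 10 Mb or more, with a rho of 0.81, though both draw on the untreated library. These are descriptions with no test, since the arms share 2 libraries and 1 balancing each. Density did not set the order alone, as a pair of arms picked after their values were seen shows: 10p, with 3.99 genes per Mb, had -0.33, and 11q, with 10.3, had -0.14.

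**Figure D3:**
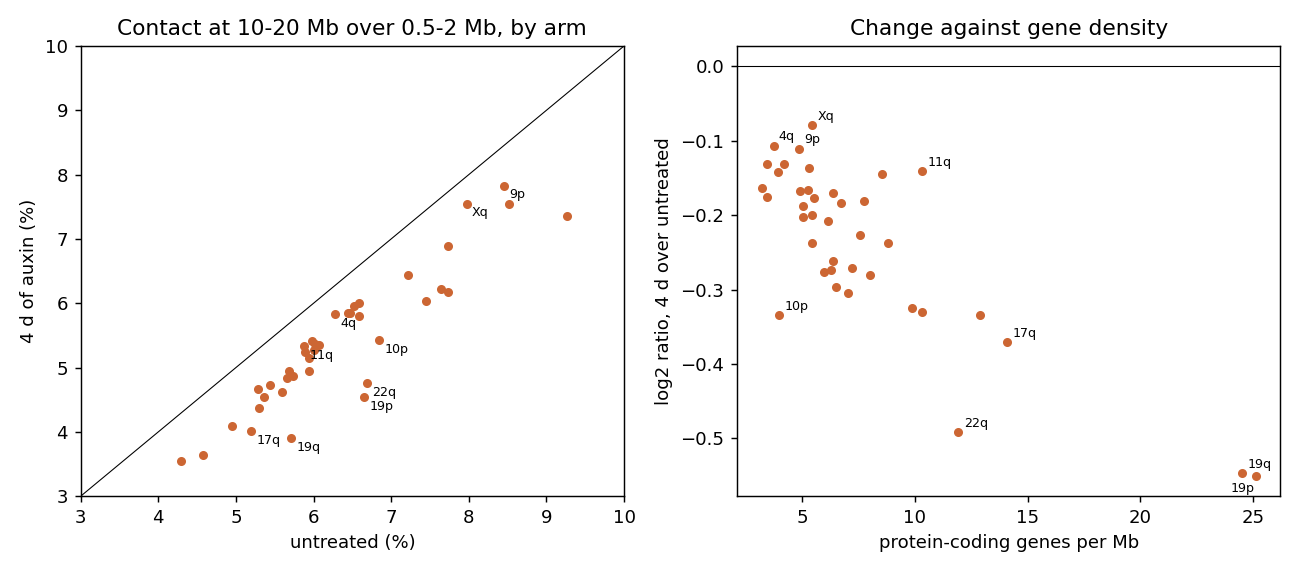
Left, contact at 10 to 20 Mb as a percentage of contact at 0.5 to 2 Mb in each of 39 arms, after 4 d of auxin (vertical axis) against untreated (horizontal axis); all points lie below the line of equality. Right, the log2 ratio of this percentage against protein-coding genes per Mb, with 19p and 19q lowest at -0.55 and Xq highest at -0.079.

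The arms also differed in where gain turned to loss. The separation at which an arm's ratio first crossed 0 had a median of 1.98 Mb and an SD of 0.48 Mb. It was shortest on 19p (0.98 Mb), 9p (1.13 Mb), 11p (1.28 Mb) and 16p (1.31 Mb). It was longest on 18p (3.66 Mb), 10p (2.59 Mb), 7p (2.58 Mb) and Xp (2.57 Mb). Near 2 Mb, in profiles of 5 bins per decade, 19p already stood at -0.19, while 19q (-0.0043) and 4q (-0.0012) were close to 0. On 19p the loss was also not even, since the log2 ratio was -0.19 near 3.14 Mb, 0.024 near 5.0 Mb and -0.55 near 12.6 Mb. The steepening of decay over 0.5 to 5 Mb was largest on 22q, where the exponent was -1.56 against -1.45, and on 19q, -1.37 against -1.27. It was smallest on Xq, with -1.32 against -1.29. In the share of contacts under 1 Mb, 19q had the highest log2 ratio (0.082, 71.0% against 67.1%), followed by 22q (0.076, 74.1% against 70.3%) and 19p (0.074, 76.3% against 72.5%). No arm reached the call in that share (0%), although 41 of 41 were higher. The short arms 18p, 20p, 17p and 12p had the lowest log2 ratios, with 75.5% against 74.6% on 18p. This share also mixes arm length with folding. Per bin pair, contact at 0.5 to 1 Mb rose most on 17p of the 41 arms (log2 ratio 0.19).

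Contacts between the arms of a chromosome cross the centromere. At 20 to 50 Mb, inter-arm contact was 64.3 after auxin and 74.0 without it (log2 ratio -0.20), lower on 18 of 18 chromosomes that are not acrocentric. Contact within arms at that range fell by 0.23 on the log2 scale. At equal separation, inter-arm contact was 0.885 of intra-arm contact after auxin and 0.839 without it, a log2 ratio of 0.078. Pooled over the separations, without matching, it was 0.041. In either, contact between arms fell less than contact within them. The ratio was higher on 16 of 18 chromosomes, and 6 were called higher (33.3%) and none lower (0%), with a median of 0.074 and an SD over chromosomes of 0.069. At 10 to 20 Mb the matched log2 ratio was 0.020, at 50 to 100 Mb 0.12 and at 100 to 200 Mb 0.11. At 5 to 10 Mb it was -0.0044. Matching needs an arm as long as the separation, and 8 arms reach 100 Mb. The ranges from 50 Mb on thus rest on fewer chromosomes.

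The chromosomes with the largest satellite blocks beside the centromere, 1, 9 and 16, did not move together. Chromosome 9 had the highest change of the 18: the ratio was 1.32 after auxin and 1.10 without it, a log2 ratio of 0.26 with a counting half-width of 0.024. On chromosome 16 it was 1.44 against 1.34 (0.11, half-width 0.020), and on chromosome 1 it was 1.43 against 1.47 (-0.042, half-width 0.023). At 10 to 40 Mb chromosomes 1, 9 and 16 were all higher, with 0.029, 0.20 and 0.13. In that window the value of chromosome 17 turned from -0.0018 to 0.026, and that of X from 0.055 to -0.0077. On chromosome 9 inter-arm contact itself fell, from 67.8 to 59.9 (log2 ratio -0.18), and intra-arm contact fell more (-0.32). Chromosomes 20 (0.16) and 3 (0.14) were next highest, and chromosomes 17 (-0.0018) and 19 (0.0048) next lowest. On chromosome 19 inter-arm contact, pooled without matching, fell most of all 18, from 124.1 to 87.2 (log2 ratio -0.51). Intra-arm contact there, on the same basis, fell by less (-0.41).

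**Figure D4:**
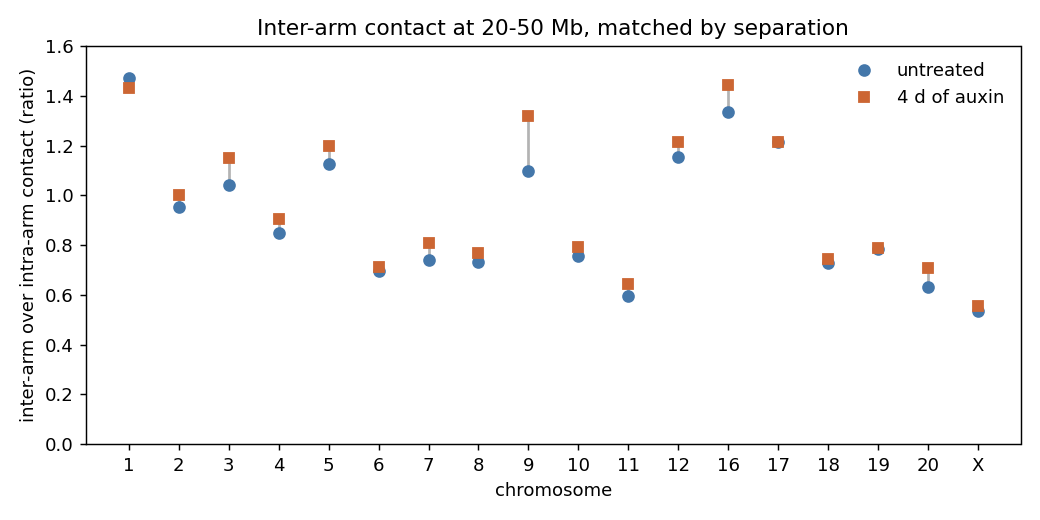
Ratio of inter-arm to intra-arm balanced contact at 20 to 50 Mb, matched by separation, for 18 chromosomes in the untreated library (circles) and after 4 d of auxin (squares). The ratio is higher after auxin on 16 chromosomes, most on chromosome 9 (1.32 against 1.10), and lower on chromosomes 1 and 17.

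The direction of the trans share depended on which contacts within chromosomes were counted. Counting only contacts within chromosomes from 1 Mb on, the trans share had a log2 ratio of 0.012 in place of -0.058. Against trans contact per bin pair, contact within arms at 20 to 50 Mb was 19.8-fold after auxin and 22.4-fold without it (log2 ratio -0.18), and at 50 to 100 Mb 5.20-fold against 6.07-fold (-0.22). Far contact within arms thus fell more than contact between chromosomes did. By chromosome, the trans share of contact ends was lower beyond counting error on 22 of 23. The exception was chromosome 19, with 30.0% in both libraries (log2 ratio -0.00067, half-width 0.0028). The lowest log2 ratios were those of chromosome 22 (-0.11, from 36.3% to 33.6%), chromosome 17 (-0.095, from 32.5% to 30.4%) and chromosome 13 (-0.092, from 23.6% to 22.2%).

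Among the 253 chromosome pairs, balanced contact was lower in 237 and higher in 16, with a median log2 ratio of -0.053. Relative to that median, 9 pairs were called lower (3.56%) and 3 higher (1.19%). The 5 lowest all held chromosome 22: its contact with chromosome 15 was 8.71, against 10.1 untreated, 10.6 against 12.4 with 21, 12.9 against 14.9 with 20, 13.4 against 15.5 with 17 and 7.27 against 8.18 with 9. Their relative log2 values were -0.17, -0.17, -0.15, -0.15 and -0.12. The 5 highest all held chromosome 19: 3.60 against 3.44 with chromosome 4, 3.84 against 3.70 with 3, 3.72 against 3.60 with 2, 3.93 against 3.81 with 6 and 4.47 against 4.34 with 5. Their relative values were 0.12, 0.11, 0.10, 0.097 and 0.095.

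Most of the spread over pairs belonged to whole chromosomes. A term for each chromosome held 71.1% of the variance of the relative change over pairs and left a residual SD of 0.025, against 0.044 before. Chromosome 22 was lower with 21 of its 22 partners (median -0.067) and chromosome 17 with 21 of 22 (-0.046), while chromosome 19 was higher with 18 of 22 (0.053). Division of raw counts by the chromosomes' trans totals, which largely takes out what a chromosome's pairs share, left no pair called in either direction (SD 0.025). In that scale 4 with 19 had 0.047 and 15 with 22 had -0.073. Pairs with more untreated contact tended to have the lower relative change, with a Pearson r of -0.65 and a Spearman rho of -0.58 over the pairs, which share chromosomes and libraries. Untreated contact is also the denominator of that change, so the correlated values are not independent.

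Pairs within chromosome classes were also set against the median pair. Among the 10 pairs of the small gene-rich chromosomes 16, 17, 19, 20 and 22, 9 were lower than the median pair and 4 were called lower, against 3.56% of all pairs, with a median of -0.077. With raw counts over trans totals the median was -0.051, and 10 of 10 were lower. Among the acrocentric chromosomes 13, 14, 15, 21 and 22, whose short arms carry the ribosomal RNA genes, 10 of 10 were lower and 2 were called, with a median of -0.058. With raw counts over trans totals that median was -0.022, and 7 of 10 were lower. Without chromosome 22 the medians of these lists, on the balanced scale, were -0.035 and -0.031. The last list held chromosomes 4, 5, 13, 18 and X, which range from 2.96 genes per Mb on 13 to 5.44 on X; chromosomes 2, 3, 8 and 21 lie in the same range and were not in it. In this list 9 of 10 pairs were higher, none was called in either direction, and the median was 0.021, or 0.0097 with raw counts over trans totals. The pairs of chromosome 19 ranged widely, from -0.075 with 22 to 0.12 with 4.

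**Figure D5:**
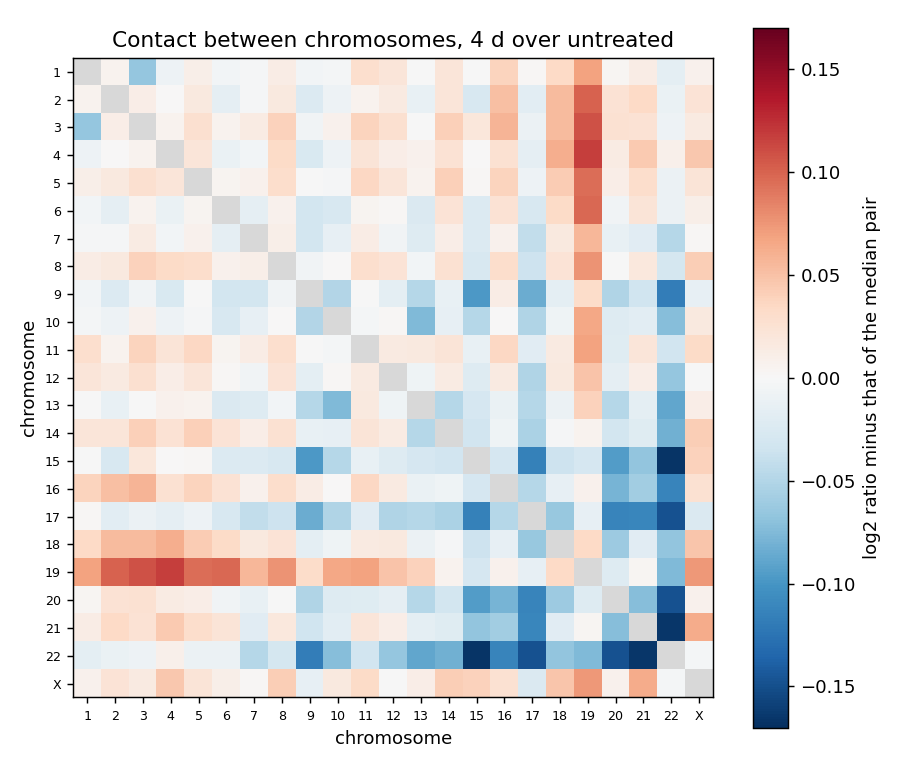
Log2 ratio of balanced contact for each of 253 chromosome pairs, 4 d over untreated, minus that of the median pair; the diagonal is empty. Row 19 is higher with 18 of 22 partners, up to 0.12 with chromosome 4, and row 22 is lower with 21 of 22, down to -0.17 with chromosome 15.

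The difference was set beside the other libraries without a test. The share of contacts within arms at 10 Mb or more was 14.1% (95% exact binomial interval 14.144% to 14.155%) in the treated library and 16.3% (16.265% to 16.280%) in the untreated one. In DNMT1-AID cells it was 16.9% with 10 d of auxin, and 16.7% when 4 d without auxin followed 4 d with it, so the library after 4 d was the lowest of the 4 of this genotype. In cells titled as knockout it was 13.8% untreated, 14.5% after 4 d and 16.5% after 10 d. The libraries HiC_3BKO-NT and HiC_DLD1-NT, both untreated, differed by a log2 ratio of -0.24, beside the -0.20 between 4 d and untreated DNMT1-AID cells. By title they also differ in DNMT3B genotype. With 1 library each, genotype and library cannot be told apart, so the -0.24 does not measure the spread between libraries.

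After 4 d of auxin in knockout cells, a pair of libraries that shares none with the DNMT1-AID pair, the profile ran the other way over most separations. At 0.5 to 1 Mb the log2 ratio was -0.024 in knockout cells and 0.11 in DNMT1-AID cells, at 20 to 50 Mb 0.071 and -0.23, and at 50 to 100 Mb 0.28 and -0.27. The far-to-near ratio had log2 ratios of 0.063 and -0.19, and it was higher in 31 of 39 arms in knockout cells. The lowest arms there were 17q (-0.10), 19p (-0.087), 15q (-0.079) and 22q (-0.078). The matched inter-arm ratio at 20 to 50 Mb, which is relative to contact within arms, fell on 16 of 18 chromosomes in knockout cells. The median of its log2 changes was -0.12. This ratio fell most on chromosomes 19 (-0.39), 1 (-0.30), 16 (-0.25) and 9 (-0.22). In DNMT1-AID cells its log2 changes on these chromosomes were 0.0048, -0.042, 0.11 and 0.26. Some differences had the same sign in both, among them the trans share (-0.044 in knockout and -0.058 in DNMT1-AID cells) and the share of contacts within arms at 1 to 10 Mb (-0.022 and -0.023). With 1 library in each group, the difference of these effects was not tested.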

How the data were processed

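The submitters' processing notes name BWA and the build hg38; the version, pair filters and balancing program are not given in those or other sources used here. The deposited tables give, per the file headers, the raw contact count, the balanced signal, and how many bin pairs were valid, for each separation in 50 kb bins. The count sums also include bins masked by balancing (0.00247% of contacts within arms in the treated library lie at separations with no valid pair), so counts are used for shares and balanced signal for contact per bin pair. As balancing equalises bin totals, a gain at 1 separation lowers the rest. Contacts from 2 bins (100 kb) on were used, and chromosomes Y and M left out.

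Profiles used 10 bins per decade of separation. The crossing over all arms together used 20, and the crossings of single arms used 10. The decay exponent is a least-squares slope over 20 bins from 0.5 to 5 Mb. Arms needed 1000 counts. Inter-arm ratios were matched at each separation and weighted by the smaller number of bin pairs. Gene density used 19970 protein-coding genes of RefSeq GRCh38, divided by arm length. Shares have exact binomial (Clopper-Pearson) intervals; half-widths of log2 ratios use counting error. Read pairs are not independent molecules, so these cover counting error only. With 1 library per group no test was run. Named arms were the 4 highest and 4 lowest of a measure with 19p, 19q, 22q, 4q and Xq, and named pairs the 5 highest and 5 lowest. Members, chromosome lists and measures were chosen with earlier results of these data known. Functions were tested on simulated data. Python 3.11.15, numpy 2.4.6, pandas 2.3.3 and scipy 1.17.1 were used.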

Additional observations from a re-analysis of the deposited data

Results flagged for a closer look

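Several differences between 4 d and untreated cells had opposite signs in DNMT1-AID and in DNMT3B knockout cells, with 1 library in each group, and the difference between the genotypes was not tested. The untreated knockout library is so called by its title, while its genotype label names DNMT1-AID alone. The share of contacts within arms at 10 Mb or more had a log2 ratio of -0.20 in DNMT1-AID cells and 0.065 in knockout cells. The share under 1 Mb had 0.060 and -0.0063. The decay exponent differed by -0.062 and 0.010. The far-to-near ratio had -0.19 and 0.063, and the matched inter-arm ratio 0.078 and -0.11. The median of pairs among acrocentric chromosomes was -0.058 and 0.0098 relative to the median pair. Other differences had the same sign in both: the trans share (-0.058 and -0.044), the share at 1 to 10 Mb (-0.023 and -0.022), and the median of pairs among small gene-rich chromosomes (-0.077 and -0.014). Of those 10 pairs, 9 were lower than the median pair in DNMT1-AID cells and 6 in knockout cells. The median of pairs among chromosomes 4, 5, 13, 18 and X also had the same sign (0.021 and 0.014).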

How the results depend on the processing

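No paired analysis was possible because each group holds 1 library. Of the values over all arms, chromosomes or listed pairs, the trans share turned direction, from -0.058 to 0.012 on the log2 scale with contacts within chromosomes counted from 1 Mb on; with balanced sums it was -0.052. The share at 10 Mb or more (-0.20) was -0.26 with a boundary of 20 Mb, -0.20 with balanced sums, -0.20 on arms of at least 50 Mb and -0.20 from 4 bins on. The share under 1 Mb (0.060) was 0.050 with a boundary of 0.5 Mb, 0.061 with balanced sums and 0.086 from 4 bins on. The exponent difference (-0.062) was -0.029 over 1 to 10 Mb and -0.066 with raw counts. The crossing (1.91 Mb) lay at 1.66 Mb with raw counts, and at 1.94 Mb with 10 bins per decade. The far-to-near log2 ratio (-0.19) was -0.11 with 5 to 10 Mb as far and -0.20 with raw counts. The matched inter-arm log2 ratio (0.078) was 0.052 at 10 to 40 Mb, 0.041 pooled over separations, 0.078 with raw counts and, chosen after seeing the data, 0.075 without chromosome 9. By chromosome, 1 turned from -0.042 to 0.029, 17 from -0.0018 to 0.026 and X from 0.055 to -0.0077 at 10 to 40 Mb. With raw counts over trans totals the medians of the gene-rich list, the acrocentric list and the list of 4, 5, 13, 18 and X (-0.077, -0.058 and 0.021) were -0.051, -0.022 and 0.0097, and with the mean over other pairs -0.072, -0.073 and 0.041. Without chromosome 22, an alternative chosen after seeing the data, the first and second were -0.035 and -0.031. Pairs called lower and higher (9 and 3) numbered 0 and 0 with raw counts over trans totals, and 30 and 17 at a threshold of 0.05. Depth was no limit on the profiles up to 100 Mb, while 5479 counts stood behind the untreated bin beyond 125.9 Mb. The cause of these shifts was not tested.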

Other observations

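With raw counts divided by trans totals, the lowest of all 253 pairs was chromosome 1 with 3, outside the naming rule and picked after its value was seen. It had -0.092 relative to the median pair on that scale, and -0.066 with balanced contact, which was 4.67 per 1000000 bin pairs after auxin and 5.07 without it. The next lowest on the raw scale were 21 with 22 (-0.082), 15 with 22 (-0.073), 16 with 21 (-0.068), 16 with 20 (-0.066), 17 with 21 (-0.066), 20 with 22 (-0.065) and 10 with 13 (-0.060). The pair 1 with 3 had 394218 raw contacts untreated, against 365758 for 1 with 2 and 269141 for 2 with 3, whose raw values were -0.0057 and -0.0052. In knockout cells after 4 d, the balanced value of 1 with 3 was -0.017.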
